A study of Mus musculus with 6 samples.

Results

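The genes described here are those that were clearly lower in every ectopic lesion grown from Dnmt3a knockout uterine tissue than in every lesion grown from control tissue. They were chosen by their own measured levels. Read counts were scaled to counts per 1000000 counts of the library (CPM), and a gene was taken when its lowest value among the 3 control (WT) lesions was at least 2 times its highest value among the 3 knockout (KO) lesions and its mean in WT lesions was at least 2 CPM. This rule took 135 of 56884 genes, or 0.973% of the 13875 genes with a mean of at least 2 CPM in WT lesions. Because the rule used the same contrast, the levels of these genes are a description and carry no test, and no further replicate of the contrast exists in the series.

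The study asked what the loss of DNMT3A does to endometriosis, the growth of endometrium-like tissue outside the uterus. WT lesions came from 3 Dnmt3a f/f female donor mice and KO lesions from 3 Dnmt3a f/f:PR-Cre/+ female donors, all 8 weeks old, and all recipients were wild-type C57BL/6J females that carried an estradiol pellet. Both groups therefore share the floxed allele and the estrogen treatment, and only donor cells that express the progesterone receptor, which drives Cre, and their descendants can lose the gene. Cells that the recipient adds to a lesion, such as leukocytes, vessels and fat, keep Dnmt3a. The labels give 4 weeks as the time and an intraperitoneal injection of uterine fragments, whereas the methods describe fragments sutured to the mesentery and an earlier collection day. Each lesion gave 1 library of messenger RNA from the whole tissue piece, with 45370342 to 57239184 counted reads.

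DNMT3A places methyl groups on cytosines of unmethylated CpG sites, and methylation at promoters is generally linked to silence and in gene bodies to active transcription. In the endometrium, estrogen drives growth of the epithelium and the stroma, and an ectopic lesion also holds recipient leukocytes and pieces of the tissue to which it attached. In whole-tissue RNA, fewer cells of a type and less RNA per cell cannot be told apart. Dnmt3a itself was at 50.1, 43.0 and 48.9 CPM in WT replicates 1, 2 and 3 (WT1 to WT3) and at 30.2, 35.1 and 37.8 CPM in KO replicates 1, 2 and 3 (KO1 to KO3). Every KO lesion was below every WT lesion, but the ratio of the lowest WT to the highest KO value was 1.14, so Dnmt3a was not one of the 135.

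The name of the group holds for only some of its genes. For 37 of the 135, at least 1 WT lesion had no read and all KO lesions had none either, so that they met the rule with 0 against 0 and were not lower than that WT lesion. Another 37 had a lowest WT value above 0 but under 1 CPM, from 1 to 49 reads, and WT2 was the lowest WT lesion for 25 of them. The remaining 61 had at least 1 CPM in all 3 WT lesions, which is 0.456% of the 13378 genes that did, and 55 of the 61 are protein-coding. The rule with the groups exchanged took 65 genes, of which 34 had at least 1 CPM in all 3 KO lesions.

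The WT lesions were unlike each other, and most of the 135 followed that difference. For 64 genes, WT1 and WT3 were each at least 2 times WT2 and at least 1 CPM. Among the genes outside these 64, WT2 was at least 2 times both other WT lesions for 22 genes, WT3 for 13 and WT1 for 3. Only 19 genes differed by less than 2-fold among the WT lesions (called even below), and all 19 belong to the 61. Another 14 lay between these patterns. The 135 genes took 1.72%, 0.605% and 1.98% of all counts in WT1, WT2 and WT3 and 0.0691%, 0.0671% and 0.124% in KO1, KO2 and KO3. The 19 even genes took 0.245%, 0.297% and 0.238% in WT and 0.0626%, 0.0607% and 0.105% in KO lesions.

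**Figure D1:**
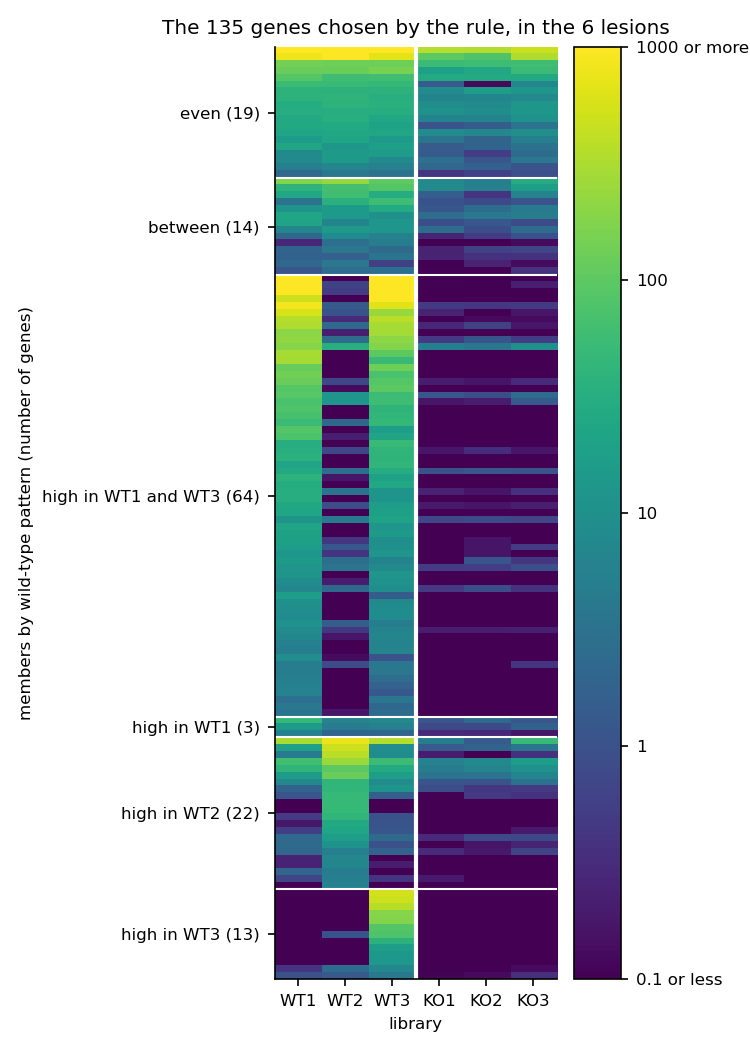
Levels in CPM (log colour scale, values of 0.1 or less share the darkest colour) of the 135 genes, 1 row per gene, in the 6 libraries. Rows are grouped by their pattern over the WT lesions, with the number of genes in parentheses, and WT2 is dark for most of the 64 genes that were high in WT1 and WT3.

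Marker genes of other tissues moved with these patterns. The summed level of 23 skeletal muscle markers was 47717 and 46696 CPM in WT1 and WT3 but 118 CPM in WT2 and 221 to 406 CPM in KO lesions, and Myh1, Myh4 and Pvalb were at 0 in all KO lesions. The 13 markers of pancreatic acinar cells summed to 6742 CPM in WT3 and to 8.61 to 16.7 CPM in the other 5 lesions. The 13 neutrophil markers summed to 10565 CPM in WT2, 593 and 326 CPM in WT1 and WT3, and 81.6 to 352 CPM in KO lesions. For T cells, the 20 markers summed to 62.9 to 180 CPM in WT and 13.7 to 49.8 CPM in KO lesions, without overlap and with no marker at 0 in any lesion. The 14 endometrial epithelium markers were higher in KO1 and KO2, at 39624 and 32168 CPM, than in KO3, at 19780 CPM, and in WT lesions, at 12546 to 21214 CPM. The part of tissue composition in the results below was not tested beyond the values given beside them.

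**Figure D2:**
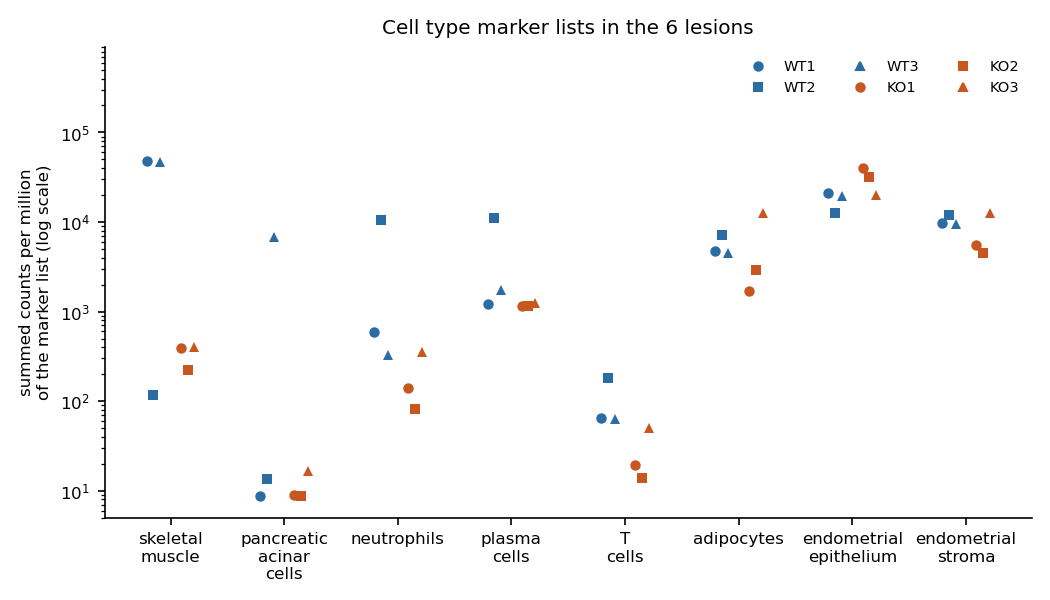
Summed levels in CPM (log scale) of the marker list of each cell type, 1 point per lesion, blue for WT and orange for KO. Skeletal muscle markers are high in WT1 and WT3, pancreatic markers in WT3, neutrophil and plasma cell markers in WT2, and KO3 lies inside the WT range for the endometrial epithelium.

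The functional groups named below were made after the genes were seen, and 32 of the 135 also fall in 16 of 54 lists of pathway and cell type genes. Skeletal muscle genes were the largest group, with 45 genes, of which 18 had a WT lesion at 0 and none was even. Other groups were 11 genes of signalling and vesicle traffic, 11 pancreatic genes, 10 immunoglobulin segments, 9 genes of squamous and barrier epithelium, 7 interferon-induced genes, 6 other immune genes, 4 genes of the neuromuscular synapse, 3 of glycolysis and lactate export, 3 epithelial solute carriers, 2 potassium channels and 1 gene of thermogenic fat. A further 23 were placed in no group. The 11 signalling and traffic genes, the 7 interferon-induced genes and the 3 glycolytic genes all had at least 1 CPM in every WT lesion.

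**Figure D3:**
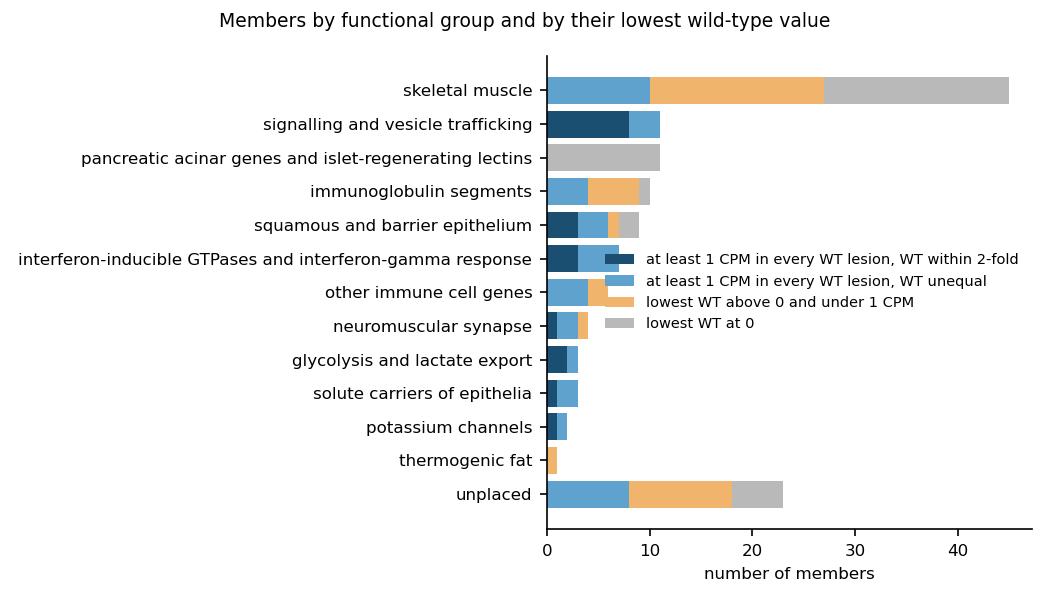
Number of the 135 genes in each functional group, with bars split by the lowest WT value. Dark blue marks the 19 genes with even WT values, of which 8 are in signalling and vesicle traffic, and grey marks the 37 genes with a WT lesion at 0, of which 29 are muscle or pancreatic genes.

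Among the even genes, the inward rectifier potassium channel Kcnj2 (Kir2.1, which holds the resting membrane potential near the potassium equilibrium) combined a wide gap with little spread in either group. Kcnj2 was at 38.2, 39.5 and 32.4 CPM in WT1, WT2 and WT3 and at 6.36, 6.88 and 7.67 CPM in KO1, KO2 and KO3. The lowest WT lesion was 4.22 times the highest KO lesion, and the means were 36.7 ± 3.81 and 6.97 ± 0.658 CPM (SD, n = 3), a 5.27-fold difference. The other potassium channel gene, Kcng4, which encodes a modifier subunit of voltage-gated channels, was scarce, at 1.73, 1.67 and 3.44 CPM in WT against 0.245, 0.375 and 0.392 CPM in KO lesions. Of the 49 other potassium channel genes tested with edgeR's quasi-likelihood test, 4 fell and 11 rose at an unadjusted p-value under 0.05 with a change of more than 1 on the log2 scale, and their median log2 fold change was 0.21. By the same limits, 5.43% of the 18096 tested genes outside the 135 were lower and 3.12% were higher, and their median log2 fold change was 0.02. After Benjamini-Hochberg adjustment in that fit, 0 genes outside the 135 had an adjusted p-value under 0.05, whereas DESeq2's Wald test gave 773 lower and 310 higher genes over all genes it tested. The adjusted edgeR count depended on WT2, since without that lesion 396 genes were lower and 2 higher, members included.

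Genes at both ends of glycolysis were even in WT lesions. Hk2, the hexokinase that traps glucose in the cell, was at 146, 130 and 131 CPM in WT against 53.5, 57.2 and 58.7 CPM in KO lesions. Pkm, the pyruvate kinase of the last step, was at 976, 980 and 1031 CPM in WT against 364, 352 and 484 CPM in KO lesions, and at 2.02 its ratio of lowest WT to highest KO value was among the closest to the limit. The mean difference was 2.41-fold for Hk2 and 2.49-fold for Pkm. As both genes are even, WT2, the WT lesion with low skeletal muscle markers, was by definition close to WT1 and WT3. All 36 listed glycolysis genes together summed to 13447 and 14277 CPM in WT1 and WT3. Their sum was 8318 CPM in WT2 and 4322 to 4994 CPM in KO lesions. Slc16a3 (MCT4, the transporter that exports lactate) was at 61.2, 253 and 55.3 CPM in WT against 6.03, 8.34 and 17.3 CPM in KO lesions, so WT2, the lesion with the most neutrophil markers, stood apart. Of the 32 other glycolysis genes tested, 9 were lower in KO lesions and 0 higher (median log2 fold change -0.85). The 9 include Eno3, Pgam2, Pfkm and Aldoa, which are the isoforms found in muscle, and Gapdh. The part of muscle in these differences was not tested. Of 31 other genes induced by hypoxia, 4 were lower and 0 higher.

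Of the 11 genes that act in signalling or vesicle traffic, 8 were even. Mreg (melanoregulin, which acts in the transport and fusion of lysosome-related organelles) differed most among these 8, at 26.7, 28.1 and 19.9 CPM in WT against 1.05, 1.5 and 3.40 CPM in KO lesions, a 12.6-fold difference of the means. Dennd4b, an activator of Rab GTPases, had nearly equal WT values of 31.2, 31.3 and 31.0 CPM against 10.8, 9.73 and 13.3 CPM in KO lesions. Pstpip2, an adaptor that binds curved membranes in myeloid cells, was at 23.7, 24.2 and 22.6 CPM in WT against 8.63, 6.98 and 9.45 CPM in KO lesions. The differences of the means were smaller for Dennd4b and Pstpip2, at 2.76-fold and 2.81-fold, than for Mreg, and for all 3 genes KO3 was the highest KO lesion.

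A pair of even genes belong to the Ras and ERK pathway. Rasgrp1, which loads Ras with GTP downstream of diacylglycerol and is best known from T cells, was at 30.1, 39.2 and 34.8 CPM in WT against 9.35, 8.13 and 13.2 CPM in KO lesions. Its mean difference was 3.39-fold, beside T cell markers that also separated the groups. Rps6ka2, a ribosomal S6 kinase activated by ERK, was at 37.9, 36.8 and 39.0 CPM in WT against 8.56, 17.6 and 13.0 CPM in KO lesions, with KO2 as the highest. Rbm38, an RNA-binding protein induced by p53, was at 23, 13.0 and 18.4 CPM in WT against 1.40, 1.96 and 3.27 CPM in KO lesions, an 8.22-fold difference. Trim40, a ubiquitin ligase known from gut epithelium, was at 5.07, 6.79 and 5.82 CPM in WT against 2.06, 1.67 and 1.09 CPM in KO lesions. Tmem38b, a cation channel of the endoplasmic reticulum, was at 88.1, 56.8 and 60.2 CPM in WT against 27.5, 28.2 and 27.4 CPM in KO lesions.

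The remaining 3 of these genes were less even in WT lesions. Homer2, a scaffold that links receptors to calcium stores, was at 22, 6.48 and 12.4 CPM in WT against 0.908, 1.21 and 0.849 CPM in KO lesions. Tnip3, a partner of the NF-kappa B brake A20, was at 40.6, 66.3 and 84.4 CPM in WT against 7.55, 5.54 and 17.3 CPM in KO lesions. Nr4a1, an orphan nuclear receptor and immediate early gene, was at 41.7, 98.0 and 28.1 CPM in WT against 4.72, 6.50 and 10.7 CPM in KO lesions. Of these, only Nr4a1 had a single outlying WT lesion by the 2-fold limit, WT2. Of 26 other genes of the NF-kappa B pathway, 13 were lower in KO lesions and 0 higher (median log2 fold change -1.47), among them Tnfaip3, which encodes A20 itself. Of 29 other immediate early genes, 10 were lower and 0 higher (median -1.15), among them Nr4a3, Fos and Egr1.

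**Figure D4:**
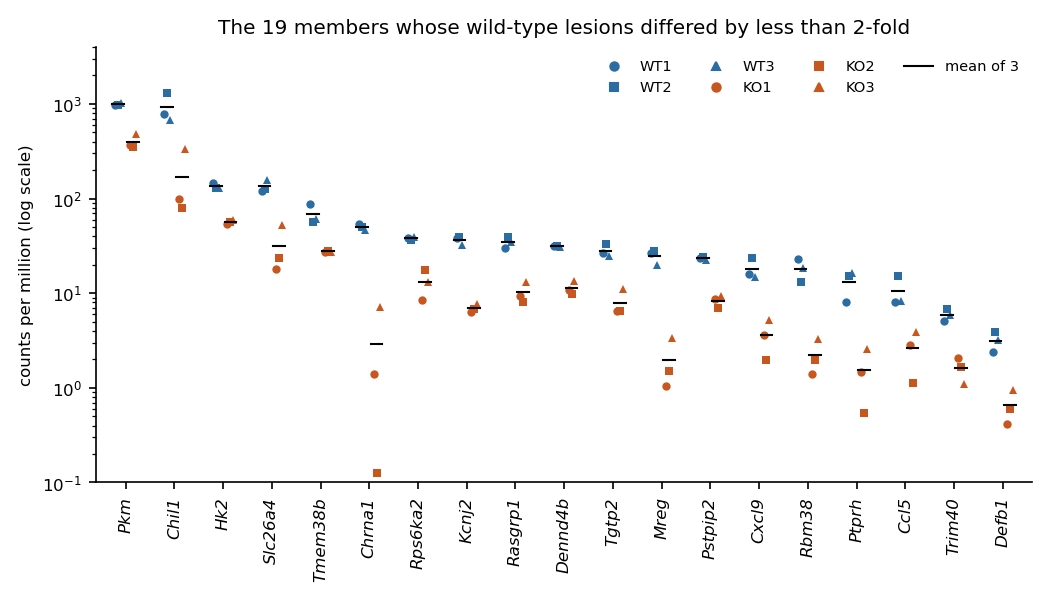
Levels in CPM (log scale) of the 19 genes whose WT values differed by less than 2-fold, ordered by their WT mean, with 3 WT (blue) and 3 KO (orange) lesions per gene and the mean of 3 as a line. KO3 (orange triangle) is the highest KO lesion for 16 of the 19.

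Over the chosen genes, KO3 was the knockout lesion nearest to the WT lesions. KO3 held the highest KO value for 43 of the 61 genes present in every WT lesion, against 13 for KO2 and 5 for KO1, and for 16 of the 19 even genes. The share over all genes was not counted. KO3 was not nearest for every marker list. Adipocyte markers summed to 12512 CPM in KO3, 2945 CPM in KO2 and 4563 to 7083 CPM in WT lesions. The median level of the 61 genes relative to their WT mean was 6.15% in KO1, 8.05% in KO2 and 16.0% in KO3. Over the 19 even genes it was 22.6%, 19.2% and 35.9%. The endometrial epithelium markers of KO3 lay within the WT range, as given above, and its stroma markers, at 12672 CPM, were above the WT range of 9474 to 11907 CPM, while KO1 and KO2 were below it at 5532 and 4456 CPM. Without KO3 the rule would have taken 524 genes, which include the 135 because leaving out a KO lesion can only add genes.

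Of the barrier epithelium genes, a pair of small proline-rich proteins showed the widest gaps. Sprr2d, a component of the cornified envelope that is made in the uterine epithelium under estrogen, was at 314, 765 and 353 CPM in WT against 4.73, 1.40 and 49.2 CPM in KO lesions. Its neighbour Sprr2b was at 176, 232 and 101 CPM in WT against 8.16, 5.15 and 29.4 CPM in KO lesions. Their means differed 25.9-fold and 11.9-fold, and KO3 was the highest KO lesion for both. The most abundant gene of the family behaved otherwise: Sprr2f was at 1103, 694 and 1249 CPM in WT against 1167, 745 and 916 CPM in KO lesions, and these ranges overlapped. Sprr2a3 was at 48.5, 190 and 212 CPM in WT against 50.4, 34.6 and 39.2 CPM in KO lesions, with WT1 inside the KO range. Reads of the family can be shared between genes: of the 50-base words in the transcripts of Sprr2b, 14.1% also occur in Sprr2a1, and 3.80% of those of Sprr2d occur in Sprr2e. Of 27 other estrogen-induced uterine genes, 3 were lower (Sprr2a1, Sprr2a2 and Lif) and 4 higher (Clca1, Aqp5, Slc15a2 and Esr1) in KO lesions (median log2 fold change 0.39).

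The promoters of this pair are shown because the genes are adjacent and were low together. Each line gives the 250 bases before the transcription start, from RefSeq on GRCm38.p6, 5′ to 3′ on the strand of the gene, and capitals mark the AP-1 motif TGANTCA, searched on both strands. Sprr2b lies on the plus strand at chr3:92316455-92316704 and Sprr2d on the plus strand at chr3:92338890-92339139. The motif begins 195 bases before the start in Sprr2b and 193 bases before it in Sprr2d, and 7.82% of all 27025 genes with a promoter in that table have it in at least 1 such window.
Sprr2b: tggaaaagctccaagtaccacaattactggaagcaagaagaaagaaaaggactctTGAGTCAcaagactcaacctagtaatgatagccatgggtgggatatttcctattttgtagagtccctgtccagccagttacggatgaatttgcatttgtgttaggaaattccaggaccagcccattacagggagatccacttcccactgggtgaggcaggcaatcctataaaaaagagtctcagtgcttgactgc
Sprr2d: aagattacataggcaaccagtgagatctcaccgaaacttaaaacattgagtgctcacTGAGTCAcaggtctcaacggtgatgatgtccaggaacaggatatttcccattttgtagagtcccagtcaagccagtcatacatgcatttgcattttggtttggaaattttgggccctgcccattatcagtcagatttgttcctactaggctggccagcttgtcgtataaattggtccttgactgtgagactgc

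Chil1, a secreted chitinase-like lectin of epithelium and macrophages, was the second most abundant of the even genes, at 792, 1312 and 678 CPM in WT against 98.4, 80.5 and 333 CPM in KO lesions. Its means were 927 ± 338 and 171 ± 141 CPM (SD, n = 3), and its ratio of lowest WT to highest KO value, 2.04, was close to the limit because of KO3. The muscle gene Mybph is its neighbour on chromosome 1, but followed the muscle pattern, at 53.6, 2.20 and 47.0 CPM in WT and 0 to 0.0436 CPM in KO lesions. Ptprh, a receptor tyrosine phosphatase of epithelial microvilli, was at 8.12, 15.3 and 16.2 CPM in WT against 1.48, 0.542 and 2.57 CPM in KO lesions. Defb1, an antimicrobial defensin secreted by epithelia, was at 2.37, 3.86 and 3.19 CPM in WT against 0.419, 0.604 and 0.958 CPM in KO lesions. Krt6b, a keratin of stressed stratified epithelium, was at 2.23, 8.77 and 5.72 CPM in WT against 0.262, 0.500 and 1.02 CPM in KO lesions. These genes were low in KO1 and KO2, where the summed endometrial epithelium markers were above those of every WT lesion. That held for the sum and not for each marker, since Krt19 was at 535 CPM in KO2 and 536 CPM in WT3. The part of epithelial content was not tested.

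The other 3 genes of this group were scarce or came from 1 lesion. Il17c, a cytokine made by epithelium, was at 0.995, 1.30 and 4.16 CPM in WT against 0.105, 0.125 and 0.348 CPM in KO lesions. Shh, the hedgehog ligand, was at 5.95 CPM and the uroplakin Upk3a at 47.9 CPM in WT2, and both were at 0 to 0.0812 CPM in the other 5 lesions. The basal keratin Krt5 was likewise at 97.2 CPM in WT2 and at most 0.261 CPM elsewhere, whereas the uroplakin Upk1a was at 55.3 CPM in WT2 and 95.4 CPM in KO2.

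Among solute carriers, Slc26a4 (pendrin, an exchanger of chloride, iodide and bicarbonate) was even and abundant. Slc26a4 was at 120, 127 and 159 CPM in WT against 17.9, 23.7 and 52.6 CPM in KO lesions, with means of 135 ± 20.8 and 31.4 ± 18.6 CPM (SD, n = 3), a 4.31-fold difference. Slc9a2, a sodium-proton exchanger of epithelium, was at 7.19, 2.16 and 9.26 CPM in WT against 0.454, 0.917 and 0.392 CPM in KO lesions. Slc47a1 (MATE1, an exporter of organic cations) was at 10.4, 1.5 and 4.99 CPM in WT lesions and had reads in 1 KO lesion only, at 0.0834 CPM in KO2. For Slc9a2 and Slc47a1 the lowest WT lesion was WT2, and both belong to the 64 genes that were high in WT1 and WT3. WT2 also had the lowest endometrial epithelium marker sum of the WT lesions, at 12546 CPM. The sum was 19780 to 39624 CPM in KO lesions, and its part was not tested.

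**Figure D5:**
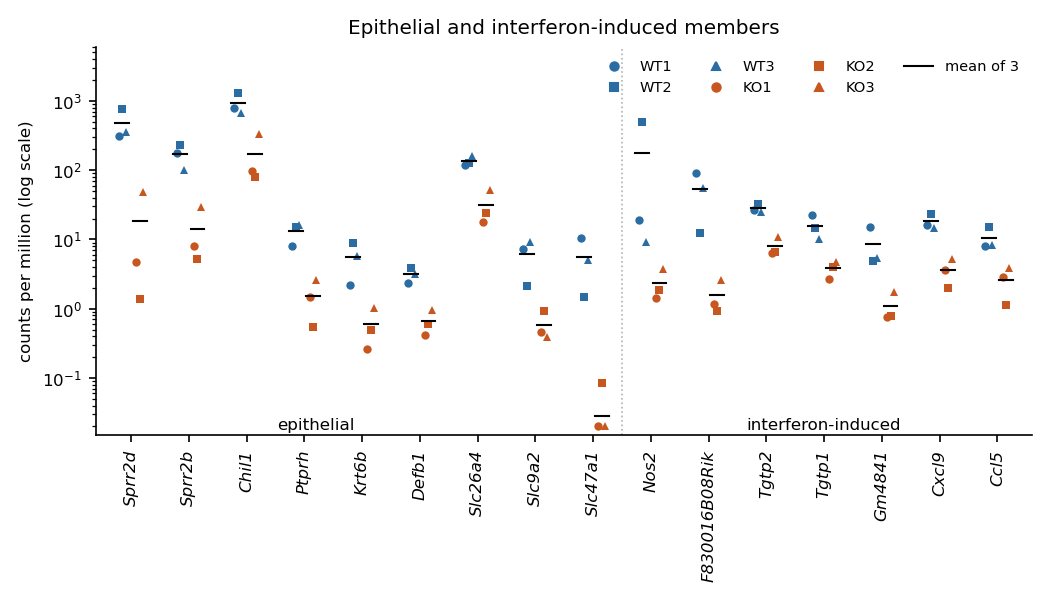
Levels in CPM (log scale) of 9 epithelial and 7 interferon-induced genes, 1 point per lesion with the mean of 3 as a line, blue for WT and orange for KO. Values of 0 are drawn at 0.02, and for 14 of these 16 genes the triangle of KO3 is the highest KO point.

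All 7 interferon-induced genes had at least 1 CPM in every WT lesion, and KO3 was the highest KO lesion for each. Tgtp2, an immunity-related GTPase that coats the vacuoles of intracellular parasites, was at 26.4, 32.9 and 24.9 CPM in WT against 6.45, 6.48 and 11 CPM in KO lesions. Its near copy Tgtp1 was at 22.5, 14.5 and 10.1 CPM in WT against 2.73, 3.98 and 4.79 CPM in KO lesions. Of the 50-base words in Tgtp2 transcripts 85.8% occur in Tgtp1, so how the counting divided their reads is uncertain. F830016B08Rik and Gm4841, which are further GTPases of this family and neighbours among the protein-coding genes of chromosome 18, were highest in WT1. F830016B08Rik was at 91.1, 12.4 and 54.7 CPM in WT against 1.17, 0.917 and 2.59 CPM in KO lesions. Gm4841 was at 15.2, 4.85 and 5.44 CPM in WT against 0.769, 0.792 and 1.74 CPM in KO lesions.

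The other 3 are effectors and chemokines. Nos2, the inducible nitric oxide synthase, was at 496 CPM in WT2 but 19 and 9.2 CPM in WT1 and WT3, against 1.43, 1.88 and 3.70 CPM in KO lesions. Cxcl9, a chemokine that attracts activated T cells, was at 16.2, 23.5 and 14.8 CPM in WT against 3.63, 1.96 and 5.27 CPM in KO lesions. Ccl5, a chemokine of T and NK cells, was at 8.10, 15.1 and 8.33 CPM in WT against 2.87, 1.13 and 3.92 CPM in KO lesions. Interferon gamma itself (Ifng) was near the limit of detection in all lesions, at 0.0607 to 0.220 CPM in WT and 0.0699 to 0.0871 CPM in KO lesions. Of the 53 other interferon-induced genes tested, 30 were lower in KO lesions and 0 higher (median log2 fold change -1.23). The T cell markers moved with them, since 17 of the 20 were lower and 0 higher, with a median of -2.03.

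The promoters of Tgtp1 and Tgtp2 are shown because both copies were low in every KO lesion and carry the same pair of elements. Both windows are the 250 bases before the start on the minus strand, from RefSeq on GRCm38.p6, at chr11:48992247-48992496 for Tgtp1 and chr11:49064213-49064462 for Tgtp2. Capitals mark the gamma-activated site TTCNNNGAA and the core TTTCNNTTT of the interferon-stimulated response element, both searched on either strand. In Tgtp1 the marked elements begin 88 and 76 bases before the start, and in Tgtp2 they begin 135, 81 and 69 bases before it. Of the 27025 genes in the table, 8.13% have the first motif and 10.8% the second in at least 1 such window, and a match is no evidence that a factor binds.
Tgtp1: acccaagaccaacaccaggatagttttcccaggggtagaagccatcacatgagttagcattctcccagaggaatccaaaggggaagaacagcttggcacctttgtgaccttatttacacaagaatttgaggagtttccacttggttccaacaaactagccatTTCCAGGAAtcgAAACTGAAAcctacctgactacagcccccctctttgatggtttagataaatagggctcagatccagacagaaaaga
Tgtp2: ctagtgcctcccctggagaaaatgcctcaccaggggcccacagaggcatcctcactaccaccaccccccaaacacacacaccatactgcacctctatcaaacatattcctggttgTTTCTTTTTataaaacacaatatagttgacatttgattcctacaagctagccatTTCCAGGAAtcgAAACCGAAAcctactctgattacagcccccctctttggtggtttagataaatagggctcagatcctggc

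A group of 4 genes belongs to the neuromuscular synapse, and the most abundant of them did not follow the muscle pattern. Chrna1, the alpha subunit of the muscle acetylcholine receptor, was at 54.1, 50.3 and 46.5 CPM in WT against 1.42, 0.125 and 7.19 CPM in KO lesions, so WT2, with few muscle transcripts, had as much of it as WT1 and WT3. Its means were 50.3 ± 3.84 and 2.91 ± 3.76 CPM (SD, n = 3), and at 17.3-fold this was the largest difference of means among the even genes. Colq, which anchors acetylcholinesterase at the synapse, was at 5.36, 1.94 and 2.00 CPM in WT against 0.314, 0.292 and 0.174 CPM in KO lesions. Musk, the receptor kinase that clusters acetylcholine receptors, was at 17.5, 1.23 and 10.1 CPM in WT against 0.0699, 0.167 and 0.523 CPM in KO lesions. Chrnd, the delta subunit, was at 9.26, 0.132 and 1.05 CPM in WT lesions and 0 in all KO lesions. Musk and Chrnd were thus lowest in WT2, as muscle genes were.

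The 45 skeletal muscle genes were highest in WT1 for 30 and in WT3 for 15, never in WT2, and they summed to 13625 and 14313 CPM in those lesions but to 72.1 CPM in WT2 and 9.87 to 16.7 CPM in KO lesions. Ckm, the muscle creatine kinase, was at 2325 and 3365 CPM in WT1 and WT3, 0.617 CPM in WT2 and 0.0417 to 0.218 CPM in KO lesions. For these genes the gap between WT2 and the KO lesions is between low values, and 24 of them had no read in any KO lesion. The only muscle gene above 12.6 CPM in WT2 was Adssl1, an enzyme of muscle purine metabolism, at 189, 33.1 and 184 CPM in WT against 5.24, 3.75 and 10.2 CPM in KO lesions. Adssl1 and 9 others, such as Cox8b, the heart and muscle form of a cytochrome oxidase subunit, were above 1 CPM in all WT lesions.

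The 11 pancreatic genes came from a single lesion. They are digestive enzymes, enzyme inhibitors and granule proteins of acinar cells (Clps, Spink1, 2210010C04Rik, Gp2, Serpini2, Try5, Prss2 and Sycn) and the lectins Reg3a, Reg3b and Reg3d. Colipase (Clps) was at 368 CPM in WT3 and had no read in the other 5 lesions. Together the 11 summed to 1994 CPM in WT3, 0.0406 and 1.01 CPM in WT1 and WT2 and 0 in KO lesions. All 11 were at 0 in at least 1 other WT lesion.

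Immunoglobulin segments were mostly highest in WT2, for 8 of 10. Ighg3, the constant region of IgG3, was at 4.30, 385 and 8.92 CPM in WT against 0.210, 0 and 0.392 CPM in KO lesions. The others were 4 variable segments of the heavy chain and 5 of the kappa chain, and the highest KO value among the 10 was 1.05 CPM. Variable segments are near copies of each other, and which of them are present depends on the antibody-producing clones of each recipient. Of the 15 other plasma cell markers, 6 were lower in KO lesions and 0 higher (median log2 fold change -1.92), among them Igkc and Jchain, and of 12 B cell markers 7 were lower and 0 higher (median -2.67).

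Of the 6 other immune genes, 4 had at least 1 CPM in all WT lesions. Retnla, a secreted protein of alternatively activated macrophages, was at 11.6, 15.4 and 28.2 CPM in WT against 1.19, 2.63 and 4.62 CPM in KO lesions. Timd4, the phosphatidylserine receptor of resident macrophages, was at 2.36, 16.9 and 2.39 CPM in WT against 0.314, 0.750 and 0.741 CPM in KO lesions, and Ly6i was at 7.73, 40.9 and 8.57 CPM in WT against 1.14, 1.04 and 3.11 CPM in KO lesions. Both were highest in WT2 among the WT lesions. Mcpt4, a chymase of connective tissue mast cells, was at 1.87, 3.79 and 2.39 CPM in WT against 0.245, 0.584 and 0.697 CPM in KO lesions. Among the 6 other mast cell markers tested, 1 was lower and 0 higher, and their median log2 fold change was -0.07. Of the 15 macrophage and monocyte markers, 2 were lower and 0 higher, and their median log2 fold change was -1.05. Tnfrsf13c, the BAFF receptor of B cells, and Stfa3, a stefin of myeloid cells, were at 5.20 and 7.10 CPM in WT2 and at most 0.690 CPM elsewhere. Ucp1, the uncoupling protein of brown and beige fat, was at 42.5 CPM in WT2, 0.487 and 1.01 CPM in WT1 and WT3 and at most 0.0871 CPM in KO lesions, although the adipocyte markers were highest in KO3.

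Of the 23 genes placed in no group, 8 had at least 1 CPM in every WT lesion. Kap, the kidney androgen-regulated protein, was at 25.1, 58.8 and 29.4 CPM in WT against 1.57, 0.417 and 6.06 CPM in KO lesions, a 14.1-fold difference of the means. Akr1c21, a hydroxysteroid dehydrogenase, was at 6.82, 14.5 and 12.8 CPM in WT against 2.59, 0.917 and 2.48 CPM in KO lesions. Ankrd33b was at 15.8, 123 and 17.0 CPM in WT against 3.48, 3.38 and 6.90 CPM in KO lesions. The pseudogene Gm31166 had a wide gap at a low level, with 12, 4.32 and 20.2 CPM in WT against 0.734, 0.792 and 0.697 CPM in KO lesions. The other 4 were Eya4, a phosphatase and transcription coactivator, Extl1, a glycosyltransferase of the exostosin family, the protease inhibitor Serpina3f and C230014O12Rik, with WT means of 2.21 to 8.18 CPM.

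The 15 others had a WT lesion under 1 CPM. They were Ces2f, Mapt, Snai3, Art5, Ambp, U90926, Gm12439, Gm11716, Mylf-ps, Foxo6os, Agbl1, Tmem233, Gm12224, Gm29773 and a gene without a symbol in the annotation used. Mapt, which encodes the microtubule protein tau, was at 25.0, 0.882 and 17.0 CPM in WT and 0.167 to 0.218 CPM in KO lesions. Like most muscle genes, it was high in WT1 and WT3. So were all the others of the 15 except Ces2f, Ambp and U90926, for example Mylf-ps at 35.4, 0.0882 and 39.6 CPM in WT lesions. Among the antisense genes in the 135, Gm11716, Gm12224, Gm29773 and Myhas overlap Pitpnc1, Acsl6, Nup133 and Myh1. The methods name a stranded library kit, but the strand setting of the counting is not given in the sources used here. In KO lesions Gm29773 had 0 reads with Nup133 at 20.4 to 25.7 CPM, and Gm11716 was at 0 to 0.0871 CPM with Pitpnc1 at 16.9 to 31.0 CPM. In WT2 Gm29773 also had 0 reads with Nup133 at 21.8 CPM, and Gm11716 was at 0.176 CPM with Pitpnc1 at 46.7 CPM. Gm12224 had 0 reads in KO lesions, where Acsl6 was at only 1.05 to 1.19 CPM. In WT1, WT2 and WT3 Acsl6 was at 8.85, 1.5 and 4.93 CPM and Gm12224 at 10.1, 0 and 8.01 CPM. Whether reads of these partners were counted for the antisense genes was not tested. Myhas and Myh1 were both at 0 in every KO lesion, and these values do not separate their reads.

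Several of the 135 genes sit side by side. Nothing annotated lies between Chil1 and Mybph, between Myh1, Myhas and Myh4, or between Reg3b, Reg3d and Reg3a, and among protein-coding genes the same holds for Sprr2b and Sprr2d and for Gm4841 and F830016B08Rik. By chromosome, chromosome 6, with the kappa light chain segments and the Reg3 genes, held 15 of them (1.95% of its 771 genes with a WT mean of at least 2 CPM), and chromosome 9 held 1 of 770 (0.130%), which can be read against the 0.973% overall. Just inside the limit of 2 for the ratio of lowest WT to highest KO value were Tmem38b at 2.01, Pkm at 2.02 and Gm11716 at 2.02. Just outside were Atp8a2 at 1.9998, Rcsd1 at 1.99 and Pde4b at 1.98.

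Many gene families held none of the 135. Among these were the 34 collagens, 41 cell cycle genes, 21 HOX genes, 37 Wnt pathway genes, 26 imprinted genes, 16 DNA methylation enzymes and readers, 30 hypoxia-induced genes and 25 genes of antigen presentation with a WT mean of at least 2 CPM. With 0.973% of all such genes taken by the rule, lists of this size would hold few of the genes or none, so a count of 0 is near the background. Without KO3 the rule took 524 of the 13875 genes in all, so the background share of that setting is larger. Among them were 8 collagens, 5 imprinted genes, 3 Wnt pathway genes, 3 hypoxia-induced genes and 1 HOX gene, and 0 genes of the other 3 lists. Without WT2, 494 genes in all included 3 imprinted genes and 1 Wnt pathway gene. Without WT1, 208 genes in all included 1 Wnt pathway gene, and without WT3, 192 genes in all included 2 hypoxia-induced genes. Of the 40 collagen genes tested outside the 135, 1 was lower in KO lesions and 0 were higher, and of the 43 cell cycle genes 0 were lower and 0 higher by edgeR. Of the 26 antigen presentation genes tested, 12 were lower and 0 higher (median log2 fold change -0.99), so a list without any of the 135 was not one without differences.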

How the data were processed

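Ectopic lesions from 3 WT and 3 KO donors were measured by RNA-seq, 1 library per lesion. The deposited values are raw counts of reads per gene, not normalized, made by the authors after trimming, mapping and counting. The submitters' processing notes name Trimmomatic, featureCounts, DESeq2 and GRCm39, whereas the methods name GRCm38, and the identifiers carry versions later than those of GENCODE M21 (35 of 56884 the same). Gene symbols were taken from GENCODE M21 with versions removed (51948 matched), and no coordinates of the counted genes are given. The aligner and the strand setting are not given in the sources used here. The labels name each library's group and replicate number, and p-values measure only the spread between these lesions.

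Members were found on CPM (counts over the library's total) with the rule given above, and Python 3.11.15 was used with pandas 2.3.3. The members and gene lists were chosen with earlier results of these data known. For genes outside the members, KO was compared with WT in edgeR 4.0.16 (quasi-likelihood test, R 4.3.3) on the 18177 genes kept by filterByExpr, with TMM scaling and genotype as the only term. Of the members, 81 passed that filter. The study's limits, an unadjusted p-value under 0.05 with a change of more than 1 on the log2 scale, decided which list genes counted as lower or higher. DESeq2 1.42.0 was an alternative, and the steps were checked on simulated data. Genes were named by rank on the ratio of lowest WT to highest KO CPM, on mean WT CPM and on evenness among WT lesions, by list and by position beside another member, with at most 2 muscle examples, and all other genes were chosen after their values were seen. Motifs and promoter windows came from RefSeq, which held 93 of the 135 members, or 68.9%. Since fewer than 80% had a window, a comparison of base composition or motifs over all members is void and is not given.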

Additional observations from a re-analysis of the deposited data

How the results depend on the processing

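All 135 genes also met the rule with TMM library sizes or DESeq2 size factors, each giving 148 genes, and 132 of them did with upper quartile scaling. A ratio of 1.5 gave 226 genes and a ratio of 3 gave 81. Added after seeing the data, a lowest WT value of at least 1 CPM left 61 genes, and 74 with TMM library sizes, of which 63 were among the 135. Leaving out 1 lesion at a time gave 148 to 524 genes, with 494 without WT2, 208 without WT1 and 524 without KO3, so the count depended most on WT2 and KO3. Of the 19 even genes, 18 stayed even with TMM library sizes among 24, and 17 among 21 with upper quartile scaling.

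In the edgeR fit, 1064 genes were lower and 564 higher by the unadjusted limits, and after Benjamini-Hochberg adjustment 1 lower gene, which the rule had already taken, and 0 higher ones passed 0.05. Without WT2, 396 lower and 2 higher genes passed it, and with any other lesion left out 0 did. Lower genes numbered 1652 with no filter beyond 1 count, 1839 with DESeq2's Wald test and 551 to 1650 with 1 lesion left out, and higher genes 280 to 1021 with 1 lesion left out. With upper quartile scaling the log2 fold change had a median of 0.11 over the genes tested, against 0.01. After adjustment, DESeq2 left 773 lower and 310 higher genes. Lesions with the same number did not deviate together (correlations of 0.03, -0.15 and -0.20), and the fit with the replicate block gave 573 lower and 372 higher genes. The log2 fold changes of 44 named members carry no test, and the rule had already fixed their sign. In 25 of 484 alternatives they moved by at least their standard error in the main fit. The cause of these shifts was not tested. Genes under 1 CPM in a WT lesion rest on at most 49 reads there.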
